A study of Mus musculus with 46 samples.

Results

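Expression of 8 genes of prolactin and cytokine signaling was followed across mouse mammary tumors and normal mammary glands: the transcription factor genes Stat5a, Stat5b and Stat3, the feedback inhibitor genes Cish, Socs2 and Socs3, and the paracrine ligand genes Tnfsf11 and Wnt4. They were 8 of 9329 genes tested on the array, chosen by name for their place in the pathway, with earlier results of these data known, and each was read from the probe set with the highest mean over all 46 arrays. All 8 passed the filter on low values, which required a log2 value over 4 in at least 3 arrays. Stat5a, Stat5b, Stat3, Cish and Socs2 were over 4 in all 46 arrays and Socs3 in 45, whereas Tnfsf11 was over 4 in only 9 arrays and Wnt4 in only 10, so these last genes entered through the few arrays in which they were high.

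Prolactin and growth hormone bind receptors that carry the Janus kinase JAK2, which phosphorylates STAT5A and STAT5B. The phosphorylated STATs move to the nucleus, bind DNA and turn on milk protein genes as well as Cish, Socs2 and Socs3, whose products then dampen the same receptors. Interleukin-6-type cytokines act through STAT3 instead, which directs involution of the gland after weaning. RANKL, encoded by Tnfsf11, and WNT4 are secreted by hormone-sensing luminal cells in response to progesterone and prolactin, and carry the signal to neighboring cells.

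The study profiled total RNA of 41 primary mammary tumors from individual mice, 8 genetically engineered models in all, and of 5 normal mammary glands from pregnant FVB mice (FVB pregnant), with 1 array for each tumor or gland. All normal glands were from late pregnancy, so pregnancy and the absence of a tumor cannot be told apart in any comparison with normal gland. Basal-type models were C3TAg (SV40 T antigens under the C3(1) promoter, FVB, n = 5), p53-/- (transplanted epithelium with floxed p53 deleted by MMTV-cre, Balb/C, n = 7) and Brca1-/-p53+/- (floxed Brca1 deleted by MMTV-cre with 1 p53 allele lost, 129B6/FVB, n = 5). Luminal-type models were MMTV-Hras (n = 5), MMTV-H2N (the Her2/neu oncogene, n = 5), MMTV-C-Myc (n = 4), MMTV-PymT (polyoma middle T antigen, n = 6) and MMTV-Wnt (n = 4), all FVB and all driven by the MMTV promoter, which is itself responsive to hormones and is also active outside the mammary gland. Values are GC-RMA expression on the log2 scale, where about 2 is the floor of a silent probe set and a difference of 1 is a 2-fold change. A ± is an SD over arrays unless SE is written, and adjusted p values come from limma with Benjamini-Hochberg adjustment over all 9329 genes.

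The labelled tissue was checked with cell type markers. Keratin 8 (Krt8) averaged between 12.09 and 14.40 in the 9 groups. Another of the 7 luminal markers, Krt19, was under 4 in all MMTV-H2N arrays. Against normal gland 2 of the 7 were higher and 1 lower in MMTV-H2N, where 22.3% and 12.8% of all genes were. In MMTV-Hras 2 were higher and 2 lower, against 14% of all genes in each direction. In Brca1-/-p53+/- 2 were lower and none higher, against 16.2% and 16% of all genes. The mean of 7 luminal markers was, however, only 7.27 in MMTV-Wnt replicate 3, 7.29 in Brca1-/-p53+/- replicate 3 and 5.38 in Brca1-/-p53+/- replicate 4, while Brca1-/-p53+/- replicate 2 carried adipocyte markers at 13.36 and skeletal muscle markers at 14.12, above every normal gland. Normal glands held far more fat than tumors: the mean of 6 adipocyte markers ran from 11.56 to 12.53 in them, against group means of 4.28 to 6.98 in the tumor models, and all 6 were lower in the mean of the tumor models. All 5 skeletal muscle markers were lower in that mean as well, where 17.1% of all genes were. In C3TAg, however, only 1 of the 5 was called lower, against 18.5% of all genes. The mean of these markers was 7.92 in C3TAg and 11.26 in normal gland, where single glands ran from 6.08 to 13.44. In whole tissue, fewer cells of a type and less RNA per cell cannot be told apart. Without the 4 tumors named above, each of the 8 genes kept its direction and call in the comparison of the mean of the tumor models with normal gland, and the part of fat and muscle in those differences was not tested.

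Stat5b, Stat5a and Stat3 lie side by side on mouse chromosome 11 in RefSeq (GRCm38.p6): Stat5b from 100780731 to 100859004, Stat5a from 100859351 to 100885169 and Stat3 from 100886806 to 100939594, with 346 bases between the first pair. STATs bind DNA at a short palindrome, and its letters TTCNNNGAA, which read the same on both strands, were searched in windows of 250 bases before to 50 bases after each RefSeq start site. Of 32851 such windows in the mouse, 8.3% held a match and 0.457% held at least 2. Windows were at hand for 7 of the 8 genes, the exception being Socs2, and 2 of the 9 windows held a match. Both belonged to feedback inhibitor genes and are printed here because their genes moved in opposite directions in the mean of the tumor models, though not in every model. Capitals mark the matches.
Cish: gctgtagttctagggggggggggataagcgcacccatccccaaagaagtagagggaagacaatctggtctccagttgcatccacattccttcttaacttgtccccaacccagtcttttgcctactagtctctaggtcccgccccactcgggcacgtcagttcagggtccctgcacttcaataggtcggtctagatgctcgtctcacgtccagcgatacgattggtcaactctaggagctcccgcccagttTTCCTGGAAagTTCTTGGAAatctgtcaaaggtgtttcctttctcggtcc
Socs3: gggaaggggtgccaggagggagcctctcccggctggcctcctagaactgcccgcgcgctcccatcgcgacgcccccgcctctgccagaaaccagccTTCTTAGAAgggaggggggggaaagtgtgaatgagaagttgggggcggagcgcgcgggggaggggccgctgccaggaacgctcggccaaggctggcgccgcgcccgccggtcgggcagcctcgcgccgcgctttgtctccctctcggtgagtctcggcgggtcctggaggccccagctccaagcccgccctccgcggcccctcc
The Cish window is chr9:107296409-107296708 on the plus strand, with matches at bases 1 to 9 and 12 to 20 counted from the start site of its window. The Socs3 window is chr11:117969317-117969616 on the minus strand, with its match at bases -154 to -146 from the start site of that window, which lies inside the annotated gene (chromosome 11, 117966079 to 117970336). A match is a string of letters and was not tested as a binding site, and a window without one says only that these letters are not in it.

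In the mean of the 8 tumor models, Stat5a, Stat5b, Cish and Tnfsf11 were lower than in normal gland, Stat3, Socs2 and Socs3 were higher, and Wnt4 was not called. The 7 called genes stood against a background in which 41.3% of all genes tested were called, 24.2% higher and 17.1% lower, so a call by itself was common. For none of the 8 did all 41 tumors lie on one side of all 5 normal glands, as they did below for 1.23% and above for 0.461% of all genes. Among the 8 models themselves Stat5a, Stat5b, Cish, Socs2, Socs3 and Wnt4 differed by the moderated F-test, which called 74.5% of all genes, and Stat3 and Tnfsf11 did not.

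Stat5a, which encodes the STAT principally needed for alveolar development and lactation, was at 10.34, 11.66, 11.22, 11.24 and 11.18 in the 5 normal glands. Only MMTV-H2N came near it, with 9.57, 10.63, 10.99, 11.07 and 10.54 in its 5 tumors. C3TAg tumors were at 7.25, 7.55, 7.54, 7.58 and 6.10. All C3TAg arrays thus lay below all normal glands, as they did for 18.9% of all genes, while MMTV-H2N overlapped the normal range. In p53-/- the 7 tumors ran from 6.03 through a median of 7.61 to 8.69, and in MMTV-PymT the 6 tumors ran from 8.57 through 9.33 to 9.69. Both models, too, lay wholly under the normal glands, which 9.66% and 10.6% of all genes did. Brca1-/-p53+/- tumors were at 7.06, 8.73, 6.12, 6.23 and 8.61, and MMTV-C-Myc tumors at 8.45, 9.04, 8.33 and 9.60. MMTV-Hras held 1 tumor apart from the rest, with 6.18, 6.23, 7.07, 9.64 and 6.68. That tumor, replicate 4, had skeletal muscle markers at 8.19 and luminal markers at 11.93, both the highest of its group, and their part was not tested. MMTV-Wnt was the most scattered group for this gene, with 4.32, 6.58, 8.08 and 10.91, so that 1 of its tumors reached the normal range and another held the lowest Stat5a value of all 46 arrays.

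On average Stat5a was 2.96 lower on the log2 scale in the tumor models, a 7.76-fold difference (SE 0.53, adjusted p = 2.17e-05). It was called lower in 7 of the 8 models, by between 1.84 in MMTV-PymT (log2 difference -1.84, SE 0.68, adjusted p = 0.0344) and 3.97 in MMTV-Hras (-3.97, SE 0.71, adjusted p = 4.74e-05). The MMTV-PymT call was lost without any 1 of its tumors 1, 2 or 5 or of normal glands 2 to 5 (adjusted p up to 0.0765), and the MMTV-C-Myc call (-2.28, adjusted p = 0.0183) without its tumor 1 or 3 (adjusted p = 0.0503 and 0.0560). In these comparisons of single models with the same normal glands, the share of all genes called was 48% in C3TAg (29.4% higher, 18.5% lower), 42.7% in p53-/- (26.1% and 16.6%) and 32.1% in Brca1-/-p53+/- (16% and 16.2%). It was 28.1% in MMTV-Hras (14% in each direction), 35.1% in MMTV-H2N (22.3% and 12.8%), 31.7% in MMTV-C-Myc (17.1% and 14.6%), 32.6% in MMTV-PymT (20.3% and 12.3%) and 27.8% in MMTV-Wnt (14.5% and 13.3%). MMTV-H2N was the exception, at -0.57 (SE 0.71, adjusted p = 0.590). The second Stat5a probe set gave -1.92 in MMTV-H2N (adjusted p = 0.0827) and -4.46 for the mean of the tumor models (adjusted p = 5.51e-07). On that second probe set all MMTV-H2N tumors, from 5.18 to 8.27, lay below all normal glands, from 8.95 to 9.99. On the probe sets used, 15.9% of all genes did so in MMTV-H2N. In descending order the group means were 11.13 ± 0.48 in normal gland, 10.56 ± 0.60 in MMTV-H2N, 9.29 ± 0.40 in MMTV-PymT and 8.85 ± 0.59 in MMTV-C-Myc. The other models lay between 7.49 ± 1.02 in p53-/- and 7.16 ± 1.43 in MMTV-Hras, with no neighbors in that stretch further apart than their SD.

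Stat5b, the close paralog that carries most growth hormone signaling in liver, followed Stat5a at smaller size. Its normal glands were at 9.16, 9.30, 8.95, 9.10 and 9.43. MMTV-H2N tumors were at 8.98, 9.52, 9.73, 9.55 and 9.37, the highest mean of all groups at 9.43 ± 0.28 against 9.19 ± 0.19 in normal gland, a difference within the larger SD. The lowest mean was that of p53-/-, 7.09 ± 0.86, whose 7 tumors ran from 5.84 through 7.29 to 8.06 and lay wholly under the normal glands, as did those of C3TAg, Brca1-/-p53+/-, MMTV-C-Myc and MMTV-Wnt. For all genes the shares were 9.66% in p53-/-, 18.9% in C3TAg, 6.67% in Brca1-/-p53+/-, 11.8% in MMTV-C-Myc and 9.1% in MMTV-Wnt. MMTV-Hras held one tumor, replicate 4, in the normal range, with 6.80, 7.26, 7.25, 9.28 and 7.55. The mean of the tumor models was 1.22 below normal gland, a 2.33-fold difference (log2 difference -1.22, SE 0.29, adjusted p = 0.000698). Stat5b was called lower in 6 of the 8 models and not in MMTV-PymT (-0.51, adjusted p = 0.31) or MMTV-H2N (0.24, adjusted p = 0.682). Centring each array on its median turned the MMTV-H2N value to -0.11. The MMTV-C-Myc call (-1.17, adjusted p = 0.0239) was lost without its tumor 1 or 3 (adjusted p = 0.0973 and 0.0580). A second Stat5b probe set was near the floor, over 4 in only 4 arrays. It gave -0.72 for the mean of the tumor models (adjusted p = 0.0046). It called MMTV-PymT lower (-0.71, adjusted p = 0.0352) but not MMTV-Wnt (-0.65, adjusted p = 0.0959).

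The 2 STAT5 genes moved together. Over the 46 arrays their log2 values correlated at r = 0.87, over the 9 group means at 0.94, and after the group means were removed at 0.74, as a description over arrays that share their tissue and normalization. Stat5b was the gene closest to Stat5a among all genes tested and Stat5a the closest to Stat5b. The next closest to Stat5b were Acot6 (r = 0.84) and Lalba (r = 0.84), the latter encoding alpha-lactalbumin, the milk protein that makes lactose synthase. For Stat5a they were Sh3bp5 (r = 0.82) and Pxmp4 (r = 0.82), which encodes a peroxisomal membrane protein. The paralogs share sequence, and a probe set can in part read the other gene's transcript, which was not tested.

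**Figure D1:**
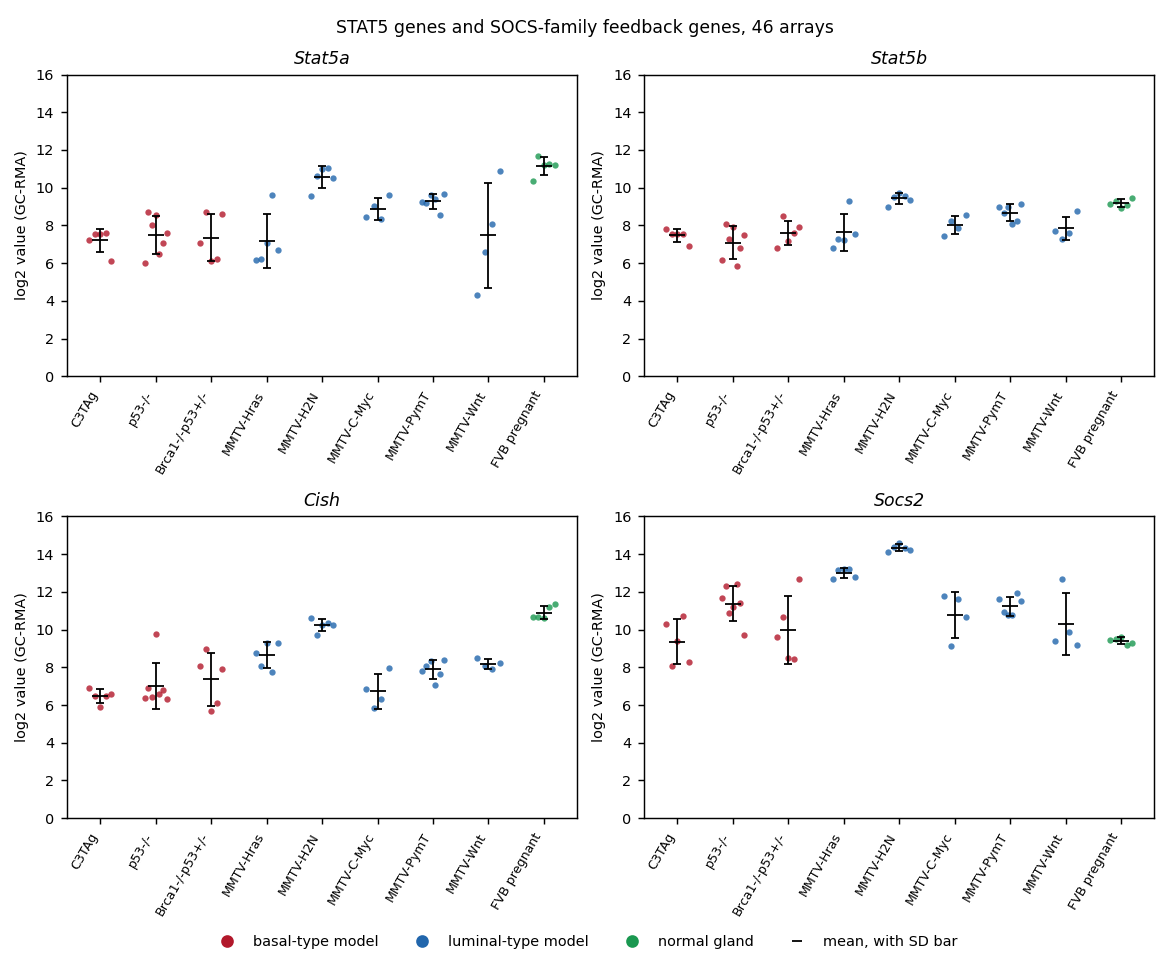
Log2 expression (vertical axis) of Stat5a, Stat5b, Cish and Socs2 in each of the 46 arrays by group (horizontal axis); points are arrays, colored by basal-type, luminal-type or normal, and black bars are the mean with 1 SD. On the probe sets shown, MMTV-H2N sits at the level of normal gland for Stat5a, Stat5b and nearly so for Cish, while its Socs2 at 14.33 ± 0.19 stands above every other array and normal gland is among the lowest. The second Stat5a probe set, not shown, was lower in all MMTV-H2N tumors than in all normal glands.

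Cish encodes a SOCS-family protein that is induced by STAT5 and blocks its docking to receptors. It was at 10.67, 10.67, 10.59, 11.18 and 11.35 in normal gland. MMTV-H2N tumors followed at 10.61, 9.74, 10.25, 10.34 and 10.22, with a single one above the lowest normal gland. The tumors of each of the other 7 models lay wholly below the normal glands. Among all genes the share for which this happened ran from 6.67% in Brca1-/-p53+/- to 18.9% in C3TAg, with 9.69% in MMTV-Hras, 11.8% in MMTV-C-Myc and 9.1% in MMTV-Wnt. C3TAg had the lowest Cish, with 6.89, 6.46, 5.87, 6.47 and 6.58, followed by MMTV-C-Myc with 6.83, 5.83, 6.31 and 7.97. In p53-/- the 7 tumors ran from 6.30 through 6.58 to 9.76, the last being replicate 4, with the next highest at 6.92. MMTV-Hras came next after MMTV-H2N, at 8.76, 8.08, 9.27, 7.77 and 9.28.

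The mean of the tumor models was 3.08 below normal gland for Cish, an 8.45-fold difference (log2 difference -3.08, SE 0.38, adjusted p = 2.25e-08), the smallest p of the 8 genes. By model the difference ran from -4.44 in C3TAg (SE 0.50, adjusted p = 3.26e-09), or 21.7-fold, to -0.66 in MMTV-H2N (SE 0.50, adjusted p = 0.334). The MMTV-H2N difference was called when only its 5 arrays and the 5 normal glands were fitted (adjusted p = 0.0235). All 7 other models were called lower. Cish tracked the STAT5 genes across groups, with r = 0.81 between the group means of Stat5b and Cish and 0.76 for Stat5a, but only 0.26 and 0.23 after the group means were removed. Genes closest to Cish were Ehhadh, a peroxisomal fatty acid oxidation enzyme (r = 0.84), Hnmt, which methylates histamine (r = 0.84), and the casein gene Csn1s2b (r = 0.82).

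Socs2 encodes the SOCS protein best known for restraining growth hormone signaling, and it did not follow Cish. Its normal glands were at 9.42, 9.51, 9.62, 9.16 and 9.27, among the lowest of the series. MMTV-H2N was highest, with 14.11, 14.39, 14.61, 14.35 and 14.21, and MMTV-Hras was next, with 12.67, 13.15, 13.19, 13.23 and 12.80. Each of the 5 MMTV-H2N tumors exceeded each of the other 41 arrays, which held for 0.783% of all genes. Tumors of MMTV-H2N, MMTV-Hras, p53-/- and MMTV-PymT all lay above all normal glands, against 25.2%, 9.15%, 14.2% and 15.3% of all genes. The next group was p53-/-, at 9.73 through 11.43 to 12.43. C3TAg was as low as normal gland, with 10.29, 8.06, 9.42, 10.74 and 8.30. Brca1-/-p53+/- and MMTV-Wnt each had a single high tumor, the former at 9.60, 10.68, 8.47, 8.43 and 12.70 and the latter at 9.42, 12.70, 9.85 and 9.17.

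Against normal gland Socs2 was 4.94 higher in MMTV-H2N, a 30.6-fold difference (SE 0.62, adjusted p = 9.54e-08), and 3.61 higher in MMTV-Hras, or 12.2-fold (SE 0.62, adjusted p = 2.8e-05). It was also called higher in p53-/- (1.98, adjusted p = 0.00503) and MMTV-PymT (1.85, adjusted p = 0.0149). C3TAg (-0.03, adjusted p = 0.971), Brca1-/-p53+/- (0.58, adjusted p = 0.503), MMTV-C-Myc (1.39, adjusted p = 0.105, but 0.0285 without its tumor 2) and MMTV-Wnt (0.89, adjusted p = 0.334) were not called. For the mean of the tumor models the difference was 1.90, or 3.73-fold (SE 0.47, adjusted p = 0.00109). A second probe set of Socs2 gave 4.89 in MMTV-H2N and 1.86 for the mean of the models. The gene with the most similar pattern was Cradd (r = 0.84), a death-domain adaptor gene on the same stretch of chromosome 10, 59764 bases from Socs2 with 1 annotated gene between them. Tesc (r = 0.84) and Pitpnc1 (r = 0.84) followed and lie on other chromosomes.

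Stat3 was the most even of the genes, with all 46 arrays between 10.52 and 13.21. Normal glands were at 11.23, 11.01, 10.93, 11.19 and 11.65, the lowest group mean at 11.20 ± 0.28. The highest was p53-/-, whose 7 tumors ran from 11.71 through 12.11 to 13.21 and lay above all normal glands, as 14.2% of all genes did. MMTV-Hras did so too, at 11.68, 12.37, 11.94, 12.32 and 12.21, against 9.15% of all genes. The other models overlapped the normal range, and MMTV-C-Myc held both a high and the lowest tumor of all, at 12.49, 11.48, 11.80 and 10.52. The mean of the tumor models was 0.61 above normal gland, 1.53-fold (SE 0.23, adjusted p = 0.0296). This call was lost when any 1 of normal glands 1 to 4 was left out (0.54 to 0.62, adjusted p from 0.0565 to 0.0969) or when arrays were centred on their medians (0.41, adjusted p = 0.163). Among the models p53-/- (1.09, adjusted p = 0.00186), MMTV-PymT (0.91, adjusted p = 0.0146) and MMTV-Hras (0.90, adjusted p = 0.0237) were called higher. A second Stat3 probe set gave 0.70 for the mean of the models (adjusted p = 0.00527). It called p53-/- and MMTV-PymT as well, but not MMTV-Hras (0.58, adjusted p = 0.114), and called MMTV-C-Myc (1.06, adjusted p = 0.00384) and Brca1-/-p53+/- (0.85, adjusted p = 0.0142) in addition. On the first probe set the MMTV-Hras call was lost without its tumor 2 or 4 or normal gland 2 or 3 (adjusted p up to 0.0602), and the MMTV-PymT call under median centring (0.63, adjusted p = 0.108). Genes closest to Stat3 were Atp7a, which encodes a copper transporter (r = 0.65), Cebpb, a transcription factor gene of the mammary epithelium (r = 0.64), and Pdlim4 (r = 0.63).

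Socs3 encodes the inhibitor that binds gp130 and curbs STAT3 signaling. Normal glands were at 7.22, 6.01, 7.17, 7.91 and 6.83. MMTV-H2N lay lowest, with 6.09, 4.32, 3.84, 5.34 and 6.02, all under the normal mean of 7.03 and 2 of them overlapping the lowest normal gland. MMTV-Hras spread across the normal range, with 6.00, 7.62, 7.30, 5.01 and 8.01. C3TAg tumors stood clear above it, with 9.32, 9.82, 9.95, 9.65 and 9.16. The p53-/- tumors did as well, from 8.99 through 10.53 to 10.99. Brca1-/-p53+/- tumors were at 10.65, 8.66, 11.71, 11.37 and 7.96, and MMTV-Wnt tumors at 9.75, 8.26, 12.12 and 10.27. All 4 of these models lay wholly above normal gland, which held for 27.1%, 14.2%, 5.84% and 12% of all genes in the same order. MMTV-PymT, at 7.66 through 8.20 to 9.999, and MMTV-C-Myc, at 10.56, 9.29, 9.64 and 6.45, overlapped it.

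Socs3 was 1.62 higher in the mean of the tumor models, 3.07-fold (SE 0.53, adjusted p = 0.0130). A second probe set gave 1.03, which was not called (adjusted p = 0.0849), and another 1.98 (adjusted p = 0.0419). The call was lost in FVB arrays alone (1.14, adjusted p = 0.0718) and without normal gland 2 (1.36, adjusted p = 0.0662). By model it was called higher in MMTV-Wnt (3.07, adjusted p = 0.00192), Brca1-/-p53+/- (3.04, adjusted p = 0.00112), p53-/- (3.04, adjusted p = 0.000245), C3TAg (2.55, adjusted p = 0.00288) and MMTV-C-Myc (1.95, adjusted p = 0.0420). The MMTV-C-Myc call was lost without any 1 of its tumors 1 to 3 or of normal glands 1, 2, 3 or 5 (adjusted p up to 0.190), and the other Socs3 probe sets did not give it (adjusted p = 0.0896 and 0.0937). Without the 3 Brca1-/-p53+/- tumors of unusual marker content the 2 remaining gave 2.28 (adjusted p = 0.0508). MMTV-H2N was called lower (-1.91, SE 0.71, adjusted p = 0.0325), a call that did not hold without its tumor 2 (-1.71, adjusted p = 0.0813) or tumor 3 (-1.59, adjusted p = 0.103), or without any 1 of normal glands 1, 3 or 4. In MMTV-H2N the second Socs3 probe set gave -2.36 (adjusted p = 0.00347) and another -0.84 (adjusted p = 0.616). Genes nearest to Socs3 were S100a6 (r = 0.87), which encodes a calcium-binding protein, and P4ha2 (r = 0.85) and Bmp1 (r = 0.85), which encode enzymes of collagen maturation.

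**Figure D2:**
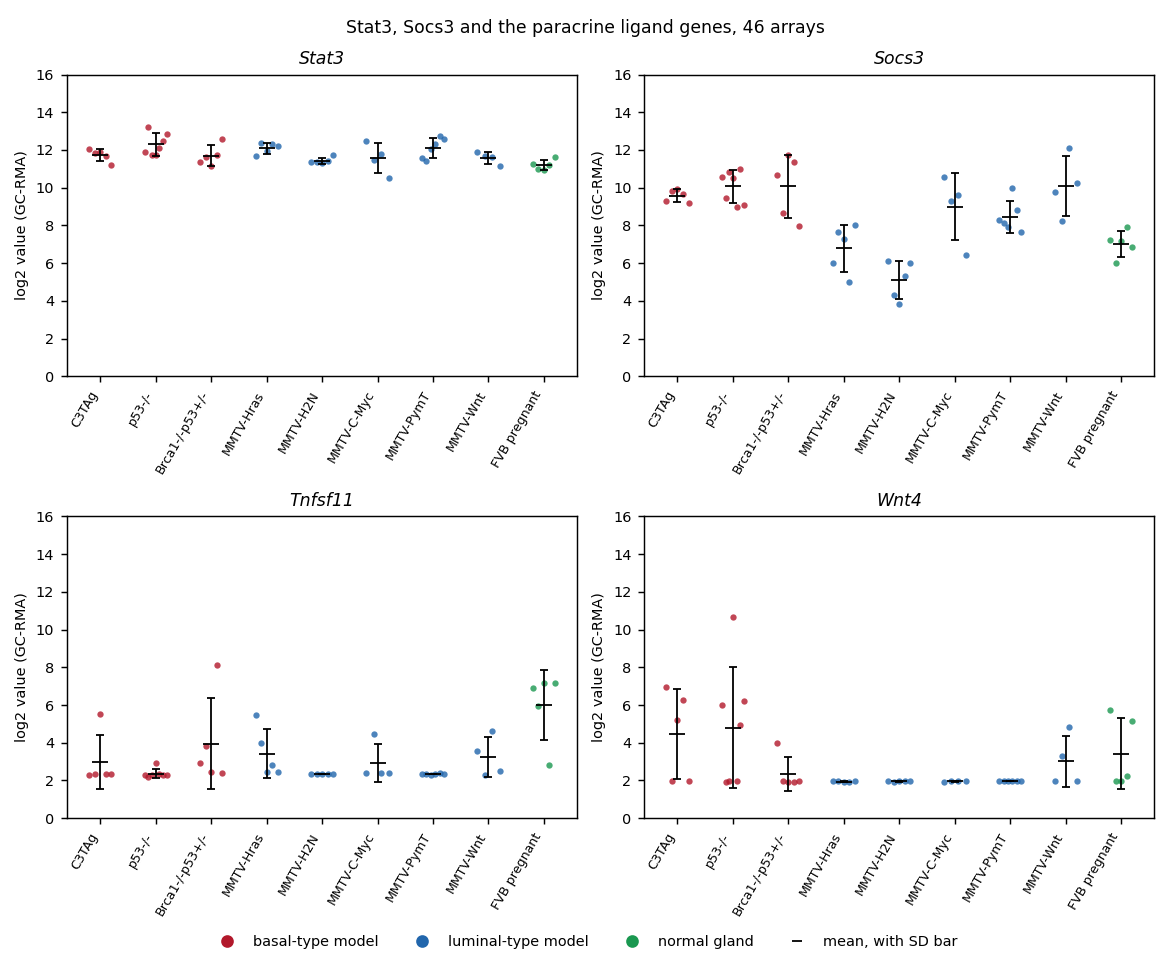
Log2 expression (vertical axis) of Stat3, Socs3, Tnfsf11 and Wnt4 in each of the 46 arrays by group (horizontal axis), with the colors and bars as for the STAT5 genes. Stat3 stays between 10.52 and 13.21, Socs3 is lowest in MMTV-H2N at 5.12 ± 1.01, and Tnfsf11 and Wnt4 rest near the floor of about 2 in most tumors.

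Socs2 and Socs3 moved against each other. Over the 46 arrays r was -0.59, over the 9 group means -0.69, and after removal of the group means -0.39. MMTV-H2N and MMTV-Hras, the highest groups for Socs2, were the lowest for Socs3. Cish and Socs3 were opposed as well across group means (r = -0.79) but less within groups (r = -0.27), and Cish and Socs2 were only weakly related (r = 0.31 over arrays, 0.34 over group means). Normal gland had the highest Cish mean, 10.89 ± 0.35, and a Socs2 mean of 9.40 ± 0.18 that only C3TAg undercut, at 9.36 ± 1.18.

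**Figure D3:**
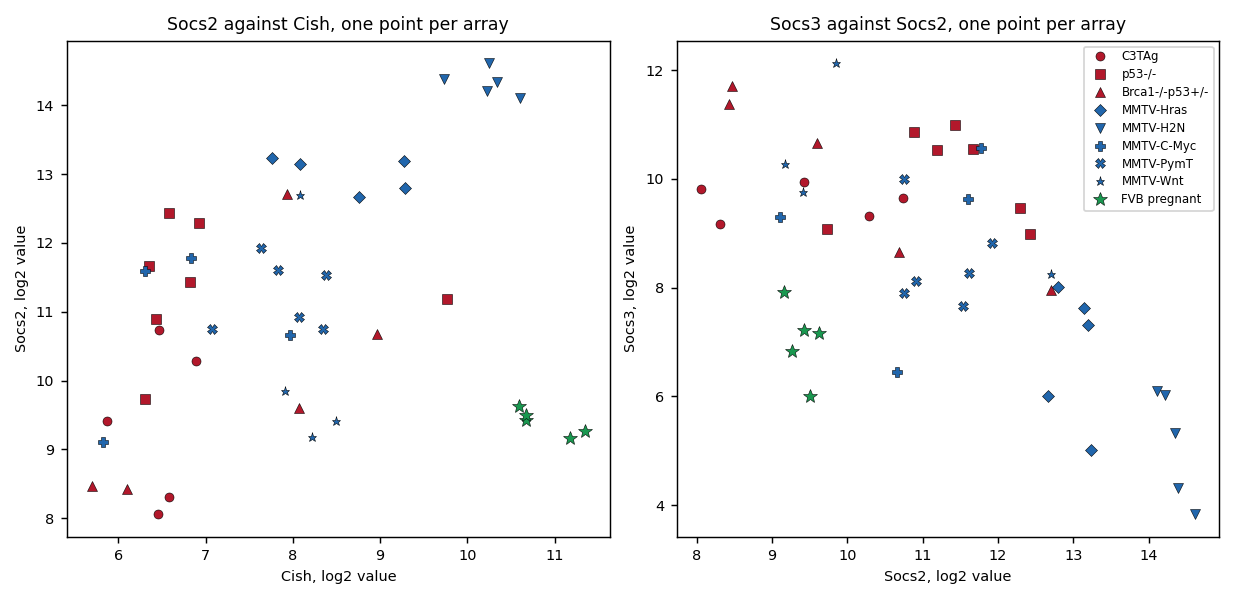
Socs2 against Cish (left) and Socs3 against Socs2 (right), log2 values on both axes, with one point per array and a marker shape for each group. The 5 MMTV-H2N tumors form a corner of high Cish and high Socs2, whereas the 5 normal glands share the high Cish, 10.59 to 11.35, with Socs2 between 9.16 and 9.62.

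Tnfsf11 encodes RANKL, the progesterone-induced ligand that drives alveolar growth. It was detected mainly in normal gland, with 6.91, 5.93, 7.15, 2.80 and 7.17, so that 4 of the 5 glands were well above the floor and replicate 4 was not. Only 5 of 41 tumors exceeded 4, each in a different model. They were Brca1-/-p53+/- replicate 4 at 8.14, the highest value of the series, C3TAg replicate 3 at 5.52, MMTV-Hras replicate 1 at 5.48, MMTV-Wnt replicate 3 at 4.61 and MMTV-C-Myc replicate 2 at 4.46. All tumors of MMTV-H2N (2.33 to 2.36) and MMTV-PymT (2.31 to 2.38) were at the floor and below every normal gland, which held for 15.9% and 10.6% of all genes. The Brca1-/-p53+/- tumor with the highest value was the one with the lowest luminal markers, 5.38. Its macrophage markers were at 11.68 and its fibroblast and matrix markers at 12.59. In MMTV-Wnt replicate 3, with Tnfsf11 at 4.61, these markers were at 11.94 and 13.55. The part of those cells was not tested.

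Tnfsf11 was 3.05 lower in the mean of the tumor models (log2 difference -3.05, SE 0.58, adjusted p = 4.73e-05), and -3.85 without normal gland 4. It was called lower in each of the 8 models, from -2.05 in Brca1-/-p53+/- (adjusted p = 0.0394) to -3.65 in MMTV-PymT (adjusted p = 0.00021). Since most tumors sit at the floor, these sizes are set by it. The F-test did not call a difference among the models (adjusted p = 0.342), which does not show that they are equal. The call in Brca1-/-p53+/- was lost without any 1 of its tumors 1, 2, 3 or 5 or of normal glands 1, 2, 3 or 5, and was -3.31 (adjusted p = 0.00338) with its 3 tumors of unusual markers left out. In fits of 2 groups at a time Brca1-/-p53+/-, MMTV-Hras and MMTV-Wnt were not called (adjusted p = 0.268, 0.0634 and 0.0681). Tnfrsf11a, which encodes the receptor RANK, was also lower in the mean of the tumor models (-1.81, SE 0.44, adjusted p = 0.00091), though in MMTV-H2N it was 0.54 above normal gland and not called (adjusted p = 0.518). Genes closest to Tnfsf11 were Pde8a, a phosphodiesterase gene (r = 0.73), Thbd, which encodes thrombomodulin (r = 0.73), and the retinoid receptor gene Rxrg (r = 0.72).

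Wnt4, a WNT ligand of hormone-sensing cells, was at or near the floor of about 1.95 in most arrays. In normal gland it was detected in 2 of 5, at 5.76 and 5.17, against 1.97, 2.00 and 2.22 in the others. It was over 4 in 4 of 7 p53-/- tumors, at 10.68, 6.01, 4.92 and 6.20, in 3 of 5 C3TAg tumors, at 6.97, 5.22 and 6.24, and in MMTV-Wnt replicate 3, at 4.83. None of the MMTV-Hras, MMTV-H2N, MMTV-C-Myc and MMTV-PymT tumors exceeded 1.98, and those of MMTV-Hras, MMTV-H2N and MMTV-PymT lay just below every normal gland, by margins within the floor. Wnt4 was not called against normal gland for the mean of the models (-0.62, SE 0.78, adjusted p = 0.552) or in any of the 8 models, with differences from -1.48 to 1.38. The mean difference moved to -0.035 without normal gland 1 and to -0.98 without normal gland 2. The p53-/- tumor with the highest Wnt4, replicate 4, was also the one with Cish at 9.76. It had the highest adipocyte (7.52), fibroblast and matrix (12.54), endothelial (6.89) and luminal (12.11) markers of its group, and their part was not tested. Genes closest to Wnt4 were Il18r1, an interleukin-18 receptor gene (r = 0.68), Clip4 (r = 0.62) and Cyp7b1, an oxysterol hydroxylase gene (r = 0.61).

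**Figure D4:**
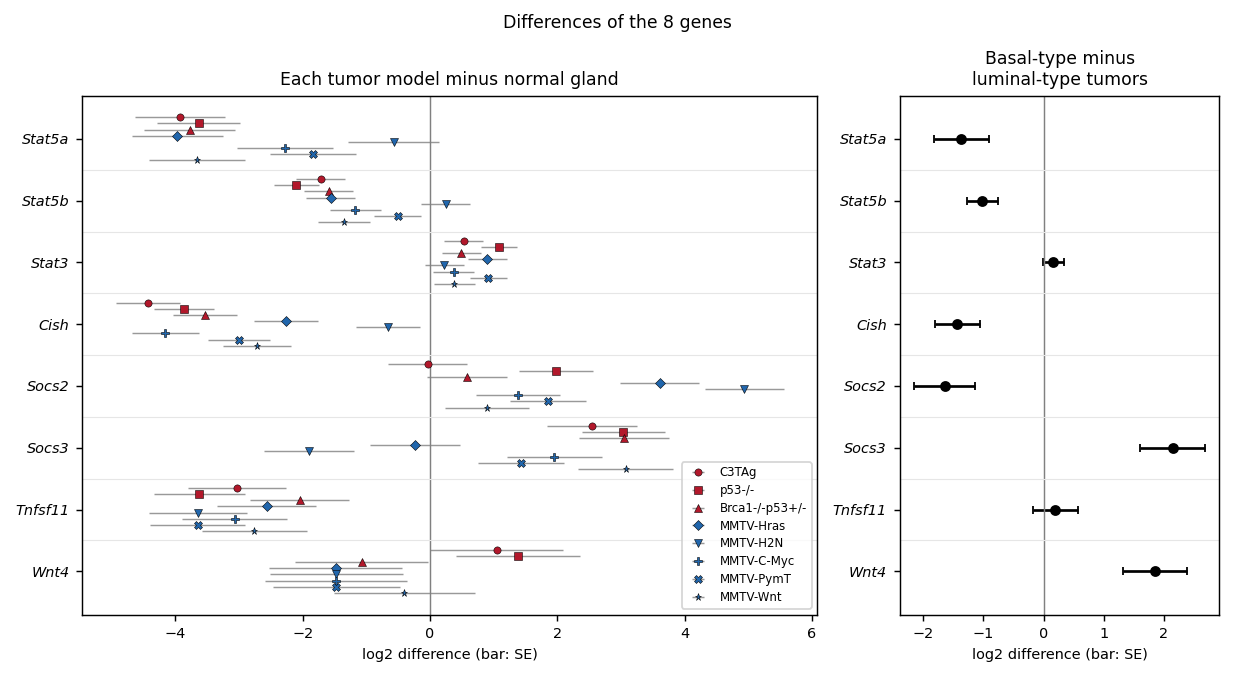
Log2 differences (horizontal axis) of the 8 genes (vertical axis), with bars of 1 SE: left, each tumor model minus normal gland; right, basal-type minus luminal-type tumors. MMTV-H2N lies nearest to 0 for Stat5a, Stat5b and Cish and farthest right for Socs2 at 4.94, and the comparisons on the left share the same 5 normal glands.

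Basal-type tumors (n = 17) were next compared with luminal-type tumors (n = 24) as pooled classes, the grouping the study used. Of 6 basal epithelium markers 1 was called higher in basal-type tumors and none lower, with a median difference of 0.35 against 0.06 over all genes. The mean of these markers was highest in MMTV-Wnt, a luminal-type model, at 9.39. It was 7.55 in C3TAg, 6.92 in Brca1-/-p53+/- and 6.44 in p53-/-, so the class names do not measure basal marker content. Stat5a, Stat5b, Cish and Socs2 were lower in basal-type tumors and Socs3 and Wnt4 higher, so 6 of the 8 were called where 27.9% of all genes were, 15.9% higher and 12% lower. For Stat5a the basal-type tumors ran from 6.03 through 7.54 to 8.73 and the luminal-type from 4.32 through 9.23 to 11.07. For Socs3 the basal-type ran from 7.96 through 9.82 to 11.71 and the luminal-type from 3.84 through 7.96 to 12.12. The classes overlapped in every one of the 8 genes. Differences were -1.37 for Stat5a (SE 0.46, adjusted p = 0.0227), -1.02 for Stat5b (SE 0.25, adjusted p = 0.00277) and -1.43 for Cish (SE 0.37, adjusted p = 0.00385). The second Stat5b probe set, near the floor, gave -0.39 and was not called (adjusted p = 0.0766). Socs2 followed at -1.65 (SE 0.50, adjusted p = 0.0128), Socs3 at 2.15 (SE 0.54, adjusted p = 0.00299) and Wnt4 at 1.86 (SE 0.53, adjusted p = 0.00838). The Wnt4 difference rested on the 7 of 17 basal-type tumors over 4, all C3TAg or p53-/-, against 1 of 24 luminal-type tumors. Its medians in both classes were at the floor, and no Brca1-/-p53+/- tumor exceeded 4, so that its size is set by the floor. Stat3 (0.16, adjusted p = 0.518) and Tnfsf11 (0.19, adjusted p = 0.728) were not called.

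Tumors of a model resemble each other, and a fit that treated model as a random block (correlation within model 0.313) kept none of the 6 calls, with adjusted p from 0.161 for Socs3 to 0.332 for Stat5a and only 49 genes called in all. Among FVB arrays alone, where C3TAg is the single basal-type model, Cish (-1.93), Socs2 (-2.66) and Wnt4 (2.34) stayed called and Stat5a, Stat5b and Socs3 did not. The luminal-type models were not alike. For Stat5a the means of MMTV-Hras (7.16 ± 1.43) and MMTV-Wnt (7.47 ± 2.76) lay at the level of the basal-type models, and for Socs3 that of MMTV-Wnt did (10.10 ± 1.60). Fibroblast and matrix markers were higher in basal-type tumors beside Socs3, with 5 of 7 called higher and a median difference of 1.89 against 0.06 over all genes. Their mean ran from 7.30 to 13.43 in basal-type and from 5.44 to 13.55 in luminal-type arrays, with MMTV-H2N between 6.15 and 8.60, MMTV-Hras between 6.10 and 8.92 and normal gland between 10.65 and 11.19. Among 8 macrophage markers 2 were called higher. The part of these cells in the Socs3 difference was not tested.

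Other genes of the pathway give the setting. In the mean of the tumor models the 6 adipocyte markers had a median difference of -7.23, against 0.20 over all genes. The part of fat in the differences of the pathway genes from normal gland was not tested. Among 12 genes known to depend on STAT5, 7 were lower and 1 higher in the mean of the tumor models, where 17.1% and 24.2% of all genes were. The median difference of the list was -2.65 against 0.20 over all genes. The lower genes included the milk protein genes Wap (-9.00, adjusted p = 8.11e-08), Csn1s2a (-7.71, adjusted p = 0.000122) and Csn2 (-6.80, adjusted p = 0.00113), and the growth factor gene Igf1 (-2.68, adjusted p = 0.00426), while the cyclin gene Ccnd1 was higher (1.51, adjusted p = 0.0112). In MMTV-H2N, where Stat5a, Stat5b and Cish were near normal on the probe sets used, the casein genes Csn2 (-1.36, adjusted p = 0.700), Csn1s2a (-0.80, adjusted p = 0.829) and Csn3 (-0.02, adjusted p = 0.993) were not called, but Wap was lower (-8.06, adjusted p = 0.000101). In all, 4 of the 12 were lower and 1 was higher in that model, where 12.8% and 22.3% of all genes were, with a median of -0.67 against 0.15 over all genes. In basal-type against luminal-type tumors 4 of the 12 were lower, among them Elf5, an alveolar transcription factor gene (-3.05, adjusted p = 0.0102), and 3 were higher, of which Id1 was the farthest (3.22, adjusted p = 1.19e-05). Of all genes 12% were lower and 15.9% higher there. These class calls carry the limit given for the pooled classes, where a random block for model left few genes called.

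Of 11 other SOCS, PIAS and phosphatase genes measured, 5 were higher in the mean of the tumor models and none lower, where 24.2% and 17.1% of all genes were. The list median was 0.84 against 0.20 over all genes. Ptpn6, which encodes the phosphatase SHP-1 of blood cells and epithelium, was higher by 1.55 (adjusted p = 7.93e-05). Beside Ptpn6, 5 of 8 macrophage markers were higher in tumors, and their part in it was not tested. Of 10 receptor genes measured 5 were lower and 2 higher, where 17.1% of all genes were lower and 24.2% higher, with a median of -0.49 against 0.20 over all genes. Among them were Ghr, the growth hormone receptor gene (-2.47, adjusted p = 2.24e-05), Il6st, which encodes gp130 (-1.45, adjusted p = 0.00169), and Osmr, the oncostatin M receptor gene (2.18, adjusted p = 0.00019). Between the classes Il6st was higher in basal-type tumors (1.17, adjusted p = 0.00442), as was the gp130 ligand gene Lif (2.25, adjusted p = 0.000501). Both calls carry the limit given for the pooled classes: tumors of a model resemble each other, and a random block for model left few genes called. Among 4 Janus kinase genes Jak2 was called higher in tumors (0.62, adjusted p = 0.0476), and neither Stat2 (0.49, adjusted p = 0.412) nor Stat6 (-0.09, adjusted p = 0.687) was called.

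Of 11 genes known to depend on STAT3 in involution 2 were called higher in the mean of the tumor models, where 24.2% of all genes were, namely the AP-1 subunit genes Junb (2.54, adjusted p = 8.64e-06) and Fos (2.12, adjusted p = 2.42e-06), with a list median of 0.18 against 0.20 over all genes. In basal-type against luminal-type tumors 5 of the 11 were higher and 1 was lower, where 15.9% and 12% of all genes were, and these class calls carry the same limit as those above, since with model as a random block 49 genes were called in all. Of 10 hormone-sensing and paracrine partner genes 2 were lower and 2 higher in tumors, shares near those of all genes (17.1% and 24.2%). The lower genes were Tnfrsf11a and Rspo1, which encodes a secreted amplifier of WNT signaling (-6.73, adjusted p = 2.96e-09), and the higher ones the WNT receptor genes Fzd6 (2.01, adjusted p = 0.00412) and Ryk (1.13, adjusted p = 0.000695). Rspo1 was lower in each of the 8 models, with differences from -5.68 in MMTV-Wnt to -7.00 in MMTV-H2N.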

How the data were processed

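The authors scanned Affymetrix mouse arrays in GCOS and deposited log2 GC-RMA values computed in Partek, which correct probes for GC content, normalize between arrays and summarise probe sets. Per the methods, probe sets with fewer than 3 present or marginal MAS5 calls had been removed, and versions are not given in the sources used here. The table held 18586 probe sets, of which 16962 had a single annotated gene, 569 several and 1055 none; 16941 were matched by gene ID to RefSeq (GRCm38.p6). Array medians lay between 6.48 and 7.48. Arrays have no read depth, so the 4 to 7 arrays per group limit the precision.

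From these values, probe sets over 4 in at least 3 arrays were kept and the one with the highest mean per gene was tested with limma 3.58.1 (lmFit, eBayes) in R 4.3.3, statmod 1.5.0 giving the random block. One fit of 9 groups gave the equal-weighted mean of 8 tumor models and each model against normal gland, and the F-test among models, and a second fit of 41 tumors gave basal-type against luminal-type. Genes were called at an adjusted p under 0.05, and scripts were tested on simulated data. Alternatives were other scalings, filters, probe sets, priors and samples. All 8 genes were named, with the 3 genes closest to each by correlation over 46 arrays. Members and lists were chosen with earlier results of these data known. Replicate numbers did not pair the arrays. For each array, the correlation of deviations from group means was averaged over arrays of other groups, separately for each replicate number. The average was highest for the array's own number in 7 of 45. Median correlations over pairs were 0.0018 for the same number and -0.0058 for others. No batch is given in the sources used here, and p values measure the spread between these mice. Figures were drawn with matplotlib 3.10.9 in Python 3.11.15.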

Additional observations from a re-analysis of the deposited data

Results flagged for a closer look

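Of 72 gene and group combinations, 11 held an array whose gap to the rest passed Dixon's critical value at 95%, where chance gives about 1 in 20, or 3.6. Stat5a was set apart in MMTV-Hras replicate 4, at 9.64 against at most 7.07 in the others, and in C3TAg replicate 5, at 6.10 against at least 7.25. Stat3 was set apart in MMTV-H2N replicate 5, at 11.72, although the whole range was only 0.41. Cish was set apart in p53-/- replicate 4, at 9.76 against at most 6.92.

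Tnfsf11 was high in single tumors, at 5.52 in C3TAg replicate 3, 8.14 in Brca1-/-p53+/- replicate 4 and 4.46 in MMTV-C-Myc replicate 2, and low in FVB pregnant replicate 4, at 2.80. It stood at 2.91 in p53-/- replicate 4, near the floor. Wnt4 stood at 3.98 in Brca1-/-p53+/- replicate 1, with the other arrays of its group at the floor, and at 1.93 in MMTV-H2N replicate 2, where all arrays were at the floor and the order of values carries little.

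For Socs3 some models lay on opposite sides of the normal mean. Every tumor of C3TAg, p53-/-, Brca1-/-p53+/-, MMTV-PymT and MMTV-Wnt lay above the normal mean of 7.03 and every MMTV-H2N tumor below it. The differences from normal gland of MMTV-Wnt (3.07) and MMTV-H2N (-1.91) were 4.98 apart, and the F-test of all 8 models gave an adjusted p of 3.53e-07.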

How the results depend on the processing

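Array number, floor values, mixed tissue and the state of the controls limit these results. Tnfsf11 and Wnt4 sat at the floor in most arrays, and strain and model cannot be told apart outside FVB. Every comparison with normal gland used the same 5 glands of 1 strain, all from pregnant mice. Pregnancy and the absence of a tumor therefore cannot be told apart. Across the whole-table settings, quantile normalization, no filter, a stricter filter and the replicate block changed no call or direction of the 8 genes in the mean, class and F comparisons, nor did equal-weighted model means in the class comparison, where alone they were run. With the replicate block the mean comparison gave -2.98 for Stat5a and 1.63 for Socs3, and among single models the calls of Tnfsf11 in Brca1-/-p53+/- (adjusted p = 0.0570) and Socs3 in MMTV-C-Myc (0.0544) were lost.

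Median centring, which moved the median of all genes in the mean comparison from 0.20 to -0.0049, gave 0.41 for Stat3 there, no longer called, and turned MMTV-H2N to -0.11 for Stat5b and -0.13 for Stat3. The F-test of Stat3 passed at 0.0460 under median centring and at 0.0434 with a trended and robust prior. Among FVB arrays the mean comparison of Socs3 was 1.14 and no longer called, and in the class comparison Stat5a (-1.53), Stat5b (-0.89) and Socs3 (1.80) were no longer called and Stat3 turned to -0.058. With model as a random block, Stat5a (-1.33), Stat5b (-0.96), Cish (-1.41), Socs2 (-1.69), Socs3 (2.06) and Wnt4 (1.76) lost their class calls, and 49 genes were called in place of 2607. Without the 4 tumors of low luminal or high adipocyte markers, an alternative chosen after seeing the data, the class difference of Tnfsf11 turned to -0.11. Causes were not tested.

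Leaving out 1 array at a time, the mean comparison of Stat3 ran from 0.54 to 0.72 and of Socs3 from 1.36 to 1.84, the F-test of Stat3 from 0.0192 to 0.112, and the class difference of Tnfsf11 from -0.13, without Brca1-/-p53+/- replicate 4, to 0.31. Small differences changed sign in C3TAg for Socs2 (-0.38 to 0.29), MMTV-Hras for Socs3 (-0.54 to 0.21), Brca1-/-p53+/- for Socs2 (-0.10 to 0.97) and MMTV-Wnt for Wnt4 (-1.01 to 0.18). The mean of all probe sets took the MMTV-H2N Socs3 call (-1.70, adjusted p = 0.0719) and the MMTV-C-Myc one (0.0520).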
